A study of Mus musculus with 11 samples.

Results

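The spread between pools of the same genotype was described in 11 pools of conventional type 1 dendritic cells (cDC1s), the dendritic cells that take up dead cells and present their antigens to CD8 T cells. Genes were chosen by this spread itself. Of 24421 genes in the count table, 10951 were above 1 CPM (a gene's count divided by the pool's total, in units of 1e6 and scaled by the TMM method) in at least 4 pools. The mean of its genotype was subtracted from each log2 CPM value, and the 200 genes with the largest standard deviation (SD) of what remained were taken as members, 1.83% of the genes tested. Because these values selected the genes, their spread and their correlations are a description and carry no test. Members sit mostly near the lower limit of detection, so the same ranking was also made among the 8192 genes above 10 CPM in at least 4 pools, and its first 200 genes are called the abundant variable genes.

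The cDC1s were sorted from subcutaneous tumors of B16 (B16-F10 in the study's text), a mouse melanoma line, grown for 10 to 15 days in C57BL/6 mice of both sexes aged 6 to 14 weeks. Control pools 1 to 3 came from XBP1 fl/fl mice and control pool 4 from XBP1 fl/fl, IRE1 fl/fl mice, all without Cre. The 4 XBP1ΔDC pools were XBP1 fl/fl, CD11c-CRE, and the 3 XBP1ΔDCIRE1truncDC pools carried CD11c-CRE with both XBP1 fl/fl and IRE1 fl/fl, so that all mice carried floxed Xbp1 alleles. Cre driven by the Itgax (CD11c) promoter is not restricted to cDC1s, and it removes exon 2 of Xbp1 and exons 20 and 21 of Ern1, the gene of IRE1, which leaves a truncated IRE1. Each pool joined cells of 2 to 4 mice and held 5000 to 20000 sorted cells, so a difference between pools is a difference between small sets of mice, sorts and libraries, and these cannot be told apart.

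A bulk library of sorted cells reads the state of the cells and whatever else passed the sort. Interferon-gamma, made in tumors mainly by T cells and NK cells, induces GTPases of the GBP and IRG families and CXCR3 ligands. Maturing dendritic cells switch on Ccr7, Fscn1 and Ccl22 and leave the cell cycle, and immediate early genes such as Egr1 and Fosb respond within minutes to signals and to tissue dissociation. Immune cells were enriched on magnetic beads by CD45, which vessel cells, fibroblasts and melanoma cells lack, before the cDC1s were sorted, and the source of transcripts known from those cells was not tested.

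Pools held 21089065 to 26843486 counts and 12878 to 13259 genes with a count, and TMM factors were 0.966 to 1.03. Defining cDC1 genes were present in every pool, with 19 of 20 measured and a summed level of 17120 to 20820 CPM. A count of 0 allows a level of up to 3 counts, which is 0.111 to 0.140 CPM, and such limits cover counting error only. XBP1ΔDCIRE1truncDC replicate 2 stood apart from the other 10 pools. It was the pool farthest from its genotype mean for 61 of the 200 abundant variable genes, beside 7 to 25 in each other pool, and in 41 of the 61 it was low.

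The SD within genotype (8 residual degrees of freedom) had a median of 0.22 on the log2 scale over all genes, 0.18 over the 8192 genes above 10 CPM and 1.61 over the members. Members ran from 3.38 for Igfbp3 to 1.31 for Nfe2l3 at rank 200, and the next gene, Lrp1, was just outside. Members were scarce transcripts, with a median of the mean level at 1.21 CPM beside 28.1 CPM for all genes. Only 4 of the 200 had a mean above 10 CPM, namely Xist, Ly6a, Uty and Apol7c, and 147 had a count of 0 in at least 1 pool. Counting error alone would give members a median SD of 0.27, and their observed SD was a median of 6.14 times the counting SD, with 3.52 times as the lowest ratio and a median of 3.82 times over all genes, and a high ratio follows in part from the choice by SD. The abundant variable genes had a median SD of 0.66, from 2.48 for Xist to 0.56, and a median of 11.2 times the counting SD. Both sets held 5 genes in common, Xist, Usp2, Ly6a, Uty and Apol7c. At the other end, Hnrnpk, which encodes an RNA-binding protein, was at 839 to 900 CPM in all 11 pools, with an SD of 0.028.

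**Figure D1:**
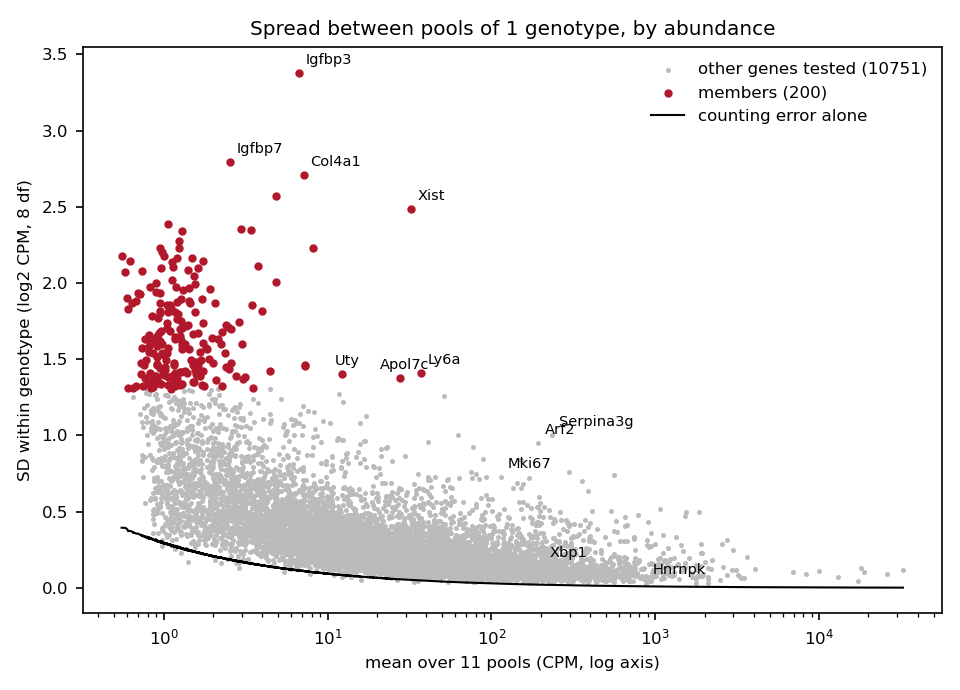
SD of log2 CPM within genotype against mean CPM on a log axis for the 10951 genes tested, with the 200 members in red and the SD that counting error alone would give as a line. All but 4 members lie below 10 CPM, and named abundant genes such as Serpina3g and Arf2 rise above other genes of their level.

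Several genes high in the ranking are known from vessels or extracellular matrix, beside others such as Xist, Stard13, Sidt1, Kcnj2 and Aldh1a3, and no list was used to pick them. Of the 7 measured genes of an endothelial list only Plvap was a member, with Flt1 at an SD of 0.91, Kdr at 0.71 and Esam at 0.47. Igfbp3 and Igfbp7 encode secreted proteins that bind insulin-like growth factors, Col4a1 and Col4a2 the chains of basement membrane collagen, Aqp1 a water channel of endothelium and red cells, Plvap a protein of the diaphragms of fenestrated endothelium, Cav1 the coat of caveolae and Sparc a matrix glycoprotein. Igfbp3 (chr11:7206086-7213923, GRCm38) was at 0, 0.333, 3.57 and 0.536 CPM in controls 1 to 4, at 22.5, 0, 34 and 4.35 CPM in XBP1ΔDC replicates 1 to 4, and at 0, 8.25 and 0 CPM in XBP1ΔDCIRE1truncDC replicates 1 to 3. XBP1ΔDC replicates 1 and 3 were thus the high pools, and 4 of the 11 pools had no count at all. Col4a1 (chr8:11198423-11312826) was at 0, 1.59, 4.77 and 6.74 CPM in controls, at 29.5, 1.65, 22.4 and 3.49 CPM in XBP1ΔDC pools and at 0, 7.83 and 0.608 CPM in XBP1ΔDCIRE1truncDC pools. Its neighbor Col4a2 (chr8:11312805-11449287), which starts on the other side of the same promoter, was at 0.805, 1.22, 3.32 and 2.05 CPM in controls, at 17.2, 0.0915, 21.7 and 3.57 CPM in XBP1ΔDC pools and at 0, 3.63 and 0 CPM in XBP1ΔDCIRE1truncDC pools. The same pools were high for both collagen chains.

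Sparc was at 0.0848, 0.815, 9.25 and 9.86 CPM in controls, at 25.2, 1.01, 20.9 and 17.1 CPM in XBP1ΔDC pools and at 1.13, 3.17 and 0.913 CPM in XBP1ΔDCIRE1truncDC pools. Control replicates 3 and 4 were above control replicates 1 and 2 without overlap, and XBP1ΔDC replicates 1, 3 and 4 were above XBP1ΔDC replicate 2. Plvap was at 0, 0, 1.37 and 0 CPM in controls, at 3.67, 0.229, 1.88 and 1.28 CPM in XBP1ΔDC pools and at 0, 5.22 and 0.0435 CPM in XBP1ΔDCIRE1truncDC pools. Angpt2, the ligand of the endothelial receptor TIE2, was at 0.0848, 0, 0 and 0.0446 CPM in controls, at 4.3, 0, 7.46 and 1.82 CPM in XBP1ΔDC pools and at 0.508, 2.42 and 0.0869 CPM in XBP1ΔDCIRE1truncDC pools. Its log2 fold change between XBP1ΔDC and control had an adjusted p of 0.0899 by edgeR's quasi-likelihood test, the lowest of any member in the 3 comparisons, and did not pass the threshold.

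Members were grouped by average linkage on 1 minus the correlation of their deviations, cut at a height of 0.5. This gave 19 groups of at least 5 genes, which held 175 of the 200. The largest had 25 genes, led by Cav1, Aqp1, Igfbp7, Igfbp3 and Col4a2, and also held Serpinh1, a collagen chaperone, Mmp12, a macrophage elastase, Angpt2, Cd93, Sparc, Col6a3 and Plvap. Its mean deviation was 1.12 and 0.98 in control replicates 3 and 4 and -0.87 and -1.23 in control replicates 1 and 2. In XBP1ΔDC it was 1, -2.98, 1.64 and 0.34 in replicates 1 to 4, and in XBP1ΔDCIRE1truncDC it was -0.94, 1.81 and -0.87 in replicates 1 to 3. Groups were also formed from control and XBP1ΔDC pools alone and read in the XBP1ΔDCIRE1truncDC pools. The median of their mean pairwise r there was 0.032 over 14 groups, and the group of 36 genes with Cav1, Igfbp7 and Sparc had 0.12. Among genes above 10 CPM the median was 0.39 over 9 groups.

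The fibroblast genes that passed the filter varied as strongly. All 6 measured genes of an 18-gene fibroblast list (Sparc, Postn, Acta2, Col3a1, Col1a1 and Col1a2) were members, and the mean deviation of the 6 had an SD of 1.54. A scarce gene can pass the filter through its high pools alone, as Col1a1 did, so a large spread of such genes follows in part from the filter. Without a filter the SD of the list was 0.92. Col1a1, a chain of type I collagen, was at 0.0848, 0.926, 0.912 and 2.23 CPM in controls, at 5.43, 0.32, 1.72 and 18.2 CPM in XBP1ΔDC pools and at 0.508, 0.792 and 0.565 CPM in XBP1ΔDCIRE1truncDC pools. Here XBP1ΔDC replicate 4 was highest, while Igfbp3 was highest in XBP1ΔDC replicate 3. The 17 fibroblast genes with a count in some pool summed to 1.65 to 27.4 CPM in controls, 9.46 to 76.9 CPM in XBP1ΔDC pools and 5.55 to 6.29 CPM in XBP1ΔDCIRE1truncDC pools. In such bulk samples fewer cells of a type and less RNA per cell cannot be told apart.

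**Figure D2:**
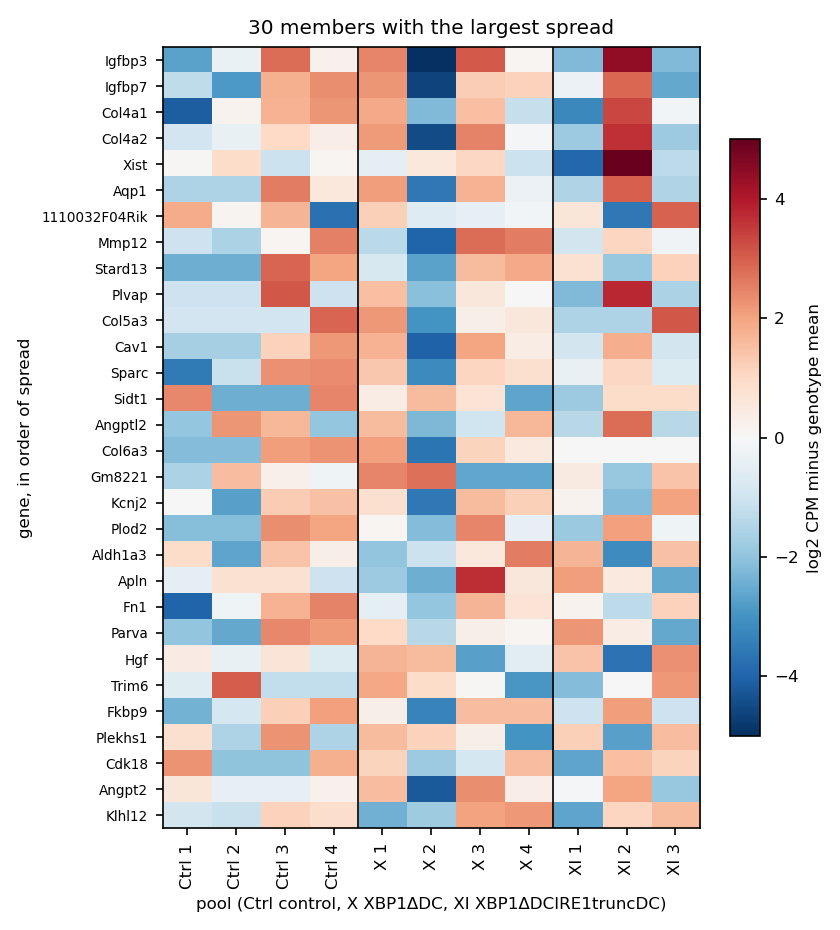
Deviation of log2 CPM from the genotype mean (color, clipped at 5) for the 30 members with the largest spread (rows) in the 11 pools (columns). Igfbp3, Col4a2 and Cav1, all of the 25-gene group, are low in XBP1ΔDC replicate 2 and high in XBP1ΔDC replicates 1 and 3, while Fn1 is high in XBP1ΔDC replicate 3 but not in replicate 1.

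Tyrp1 and Dct encode enzymes of melanin synthesis, and Gpnmb a glycoprotein of melanosomes that macrophages also make. Tyrp1, a member, was at 1.06, 1.7, 10 and 10.4 CPM in controls, at 1.59, 1.55, 8.84 and 12.7 CPM in XBP1ΔDC pools and at 4.07, 1.07 and 0 CPM in XBP1ΔDCIRE1truncDC pools. Dct, at 1.27 just below the members, was at 4.75, 4.11, 21.5 and 33.4 CPM in controls, at 4.85, 5.12, 12.4 and 35 CPM in XBP1ΔDC pools and at 1.76, 2.66 and 4.3 CPM in XBP1ΔDCIRE1truncDC pools. In control and in XBP1ΔDC, replicates 3 and 4 were the high pools for both genes, with no overlap with replicates 1 and 2. The labels give no batch or date that replicates 3 and 4 share. The 15 pigment list genes with a count in some pool summed to 11.8 to 68.7 CPM in controls, 14 to 70.8 CPM in XBP1ΔDC and 9.69 to 13 CPM in XBP1ΔDCIRE1truncDC pools. Their mean deviation correlated with that of the fibroblast list over the 11 pools (r = 0.90, rho = 0.84, r = 0.78 without the 2 pools farthest from the median). Such correlations compare libraries of differing depth after 3 genotype means were removed, and those given here were picked for their subject among 528 pairs of lists, after their values were seen. The highest was between the PERK and ATF4 targets and the 2 measured B and plasma cell genes (r = 0.94, rho = 0.93, r = 0.88 without the 2 pools).

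Genes known from macrophages and monocytes were in 2 further member groups. A 23-gene group held Pf4, a platelet and macrophage chemokine, the complement receptor C5ar1, Ccr1, Ccl12 and Csf1, and it was lowest in control replicate 2 (-1.74) and XBP1ΔDC replicate 1 (-2.23). Pf4 was at 1.31, 0.889, 5.72 and 4.28 CPM in controls, at 0.77, 1.28, 5.86 and 4.89 CPM in XBP1ΔDC pools and at 0.821, 1.26 and 6.48 CPM in XBP1ΔDCIRE1truncDC pools. As for the pigment genes, replicates 3 and 4 were the high pools in control and in XBP1ΔDC. A 14-gene group with Fn1, the gene of fibronectin, Mrc1, the mannose receptor CD206, Cbr2 and Col3a1 was lowest in control replicate 1 (-2.99). Fn1 was at 0, 1.07, 4.44 and 7.41 CPM in controls, at 2.36, 0.777, 10.8 and 5.24 CPM in XBP1ΔDC and at 2.7, 0.932 and 5.39 CPM in XBP1ΔDCIRE1truncDC pools. Of 25 measured macrophage and monocyte genes, 3 were members and 23 had an SD above the median of all genes, but the list did not move as one, with a mean pairwise correlation of 0.076. Its 29 genes summed to 2623, 2550, 1924 and 2056 CPM in controls, to 2005, 2522, 1966 and 2118 CPM in XBP1ΔDC pools and to 2392, 1620 and 2662 CPM in XBP1ΔDCIRE1truncDC pools. Unlike Pf4 and Fn1, this sum was lower in control replicates 3 and 4 than in control replicates 1 and 2.

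The other member groups were less readable as biology. In 164 of the 200 members the pool farthest from its genotype mean was a low one, and in 16 of the 19 groups the farthest pool of the group mean was low, as in a 10-gene group with Arap3, Amot and Tns1 (-2.77 in control replicate 3) and an 8-gene group with Plxna4 and Arhgef18 (-3.19 in XBP1ΔDC replicate 3). Plxna4 and Tns1, for example, had a count of 0 in that pool, and Arap3 was at 0.0829 CPM there beside 2.22 to 2.88 CPM in the other controls. The 25-gene, 23-gene and 14-gene groups described above were also among the 16. Their farthest pools were XBP1ΔDC replicate 2, XBP1ΔDC replicate 1 and control replicate 1. An 11-gene group joined Apol7c, Uty, Hgf and Tmem119 and was low in XBP1ΔDC replicate 3 (-2.33) and XBP1ΔDCIRE1truncDC replicate 2 (-1.88). A 6-gene group joined Xist, Ly6a, Cxcl11 and Serpina3f and was high in XBP1ΔDCIRE1truncDC replicate 2 (2.77). The first principal component of the members took 27.9% of their residual variation, with Igfbp3, Igfbp7 and Col4a2 at one end and Ephx2, Hgf and Gfpt2 at the other, and components 2 and 3 took 15.2% and 11.8%.

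Xist, the RNA that coats the inactive X chromosome in female cells, was the most variable abundant gene. Xist (chrX:103460366-103483254) was at 34.6, 61.6, 15.5 and 35.6 CPM in controls, at 24.2, 49.2, 70.2 and 16.2 CPM in XBP1ΔDC pools and at 0, 48 and 0.435 CPM in XBP1ΔDCIRE1truncDC pools. The Y-linked genes Ddx3y, Eif2s3y, Kdm5d and Uty summed to 93.2, 42.2, 128 and 68.5 CPM in controls, to 113, 87.3, 33 and 79.8 CPM in XBP1ΔDC and to 164, 30.4 and 178 CPM in XBP1ΔDCIRE1truncDC pools. XBP1ΔDCIRE1truncDC replicates 1 and 3 had the least Xist and the most Y-linked RNA of all pools, and the other 9 pools had both. Over the 11 pools the deviations of Xist and of the Y-linked list ran opposite to each other (r = -0.87, rho = -0.94, r = -0.71 without the 2 pools farthest from the median). Without XBP1ΔDCIRE1truncDC replicate 2 the SD of Xist was 1.08 instead of 2.48, and that of the mean deviation of the Y-linked list 0.68 instead of 1.05. The sex of the mice in each pool is not in the labels.

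**Figure D3:**
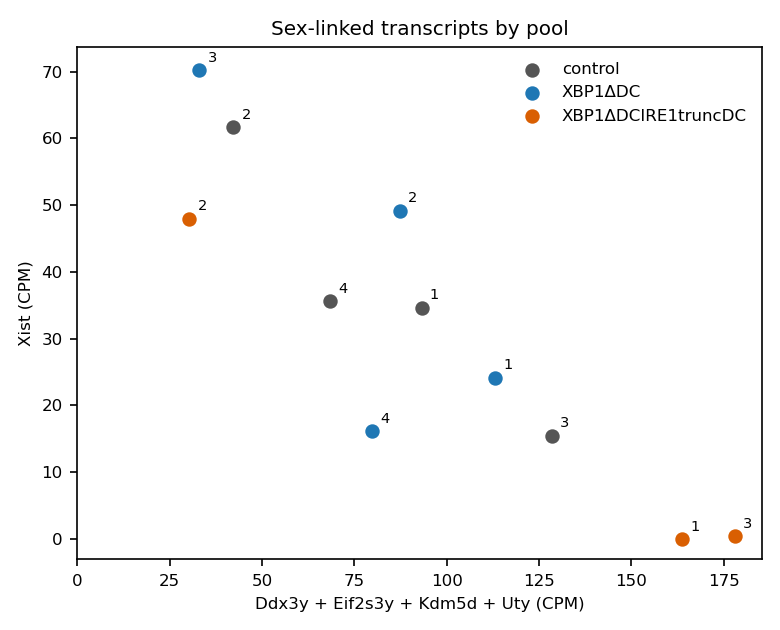
Xist CPM against the summed CPM of 4 Y-linked genes in each pool, colored by genotype and numbered by replicate. XBP1ΔDCIRE1truncDC replicates 1 and 3 lie at the lower right with Xist at 0 and 0.435 CPM, and the other 9 pools run from upper left to lower right.

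Among the abundant variable genes, 8 groups held 194 of the 200, and the first component took 41.9% of the residual variation, with 24.4% and 14.2% on components 2 and 3. The largest had 96 and 30 genes. The 30-gene group held 10 genes of the interferon-gamma list (Cxcl9, Cxcl10, Gbp2, Gbp3, Gbp5, Igtp, Iigp1, Socs1, Tgtp1 and Tgtp2) and 4 of the antiviral list (Ifi204, Oasl1, Oasl2 and Zbp1), beside Ly6a, Serpina3g, Ly6c2, Dnase1l3 and Xist. The mean correlation between its genes was 0.76. Tgtp1 and Tgtp2, and the Serpina3 genes, are near copies of each other, so that reads may have been split between them.

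Promoters of this group are shown because its genes moved together, and the sequence was not used to group them. Of its 30 genes, 23 had a promoter (250 bases before to 50 bases after the start) in the RefSeq table for GRCm38.p6. Each was searched on both strands for the interferon-stimulated response element, spelled GAAA, NN and GAAA in 1 run, and for the gamma-activated site TTCNNNGAA. The first was present in 9 of 23 (39.1%), beside 3.99% of the 27025 genes with a promoter, and the second in 7 of 23 (30.4%), beside 9.55%. Both were present in 5, and other genes of the group, among them Ly6c2, Cxcl9 and Oasl1, had neither. In the 96-gene group 3 of 72 (4.17%) held the first and 4 of 72 (5.56%) the second. A match is a run of letters and not a shown binding site. The promoters of Cxcl10 (chr5:92348840-92349139, minus strand), Gbp2 (chr3:142620413-142620712, plus strand), Igtp (chr11:58199306-58199605, plus strand) and Serpina3g (chr12:104235897-104236196, plus strand) follow, 5′ to 3′, with matches to either motif on either strand in capitals. The response element starts at position -213 in Cxcl10, at -59 in Gbp2 and at -34 in Igtp relative to the start, and the gamma-activated site at -45 in Igtp and -33 in Serpina3g. The motifs do not overlap in these 4 promoters, which were picked from those with a match.
Cxcl10: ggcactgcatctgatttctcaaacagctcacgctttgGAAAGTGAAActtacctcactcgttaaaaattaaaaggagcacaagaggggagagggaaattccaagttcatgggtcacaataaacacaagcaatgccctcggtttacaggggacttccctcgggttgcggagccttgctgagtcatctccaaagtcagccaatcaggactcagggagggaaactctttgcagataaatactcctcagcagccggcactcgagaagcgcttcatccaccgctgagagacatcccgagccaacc
Gbp2: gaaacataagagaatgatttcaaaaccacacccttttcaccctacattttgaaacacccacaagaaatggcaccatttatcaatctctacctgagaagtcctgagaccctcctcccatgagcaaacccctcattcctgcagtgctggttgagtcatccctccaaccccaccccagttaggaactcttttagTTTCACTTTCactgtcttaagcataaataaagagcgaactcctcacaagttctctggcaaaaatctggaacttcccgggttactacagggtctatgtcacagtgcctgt
Igtp: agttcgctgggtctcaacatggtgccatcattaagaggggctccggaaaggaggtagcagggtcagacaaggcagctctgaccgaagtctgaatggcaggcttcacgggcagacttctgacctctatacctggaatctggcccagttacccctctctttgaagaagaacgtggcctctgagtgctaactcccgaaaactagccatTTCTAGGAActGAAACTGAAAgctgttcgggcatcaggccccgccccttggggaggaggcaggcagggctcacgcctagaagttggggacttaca
Serpina3g: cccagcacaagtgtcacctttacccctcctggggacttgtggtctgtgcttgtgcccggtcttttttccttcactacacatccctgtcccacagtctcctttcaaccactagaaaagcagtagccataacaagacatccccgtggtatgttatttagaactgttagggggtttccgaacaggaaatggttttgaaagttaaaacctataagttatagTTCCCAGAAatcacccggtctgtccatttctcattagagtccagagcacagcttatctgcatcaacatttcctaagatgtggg

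Ly6a, the gene of the surface protein Sca-1 and a member, was at 38.7, 17.3, 22.4 and 9.69 CPM in controls, at 57.7, 23.5, 53.3 and 5.2 CPM in XBP1ΔDC pools and at 17.6, 146 and 18.1 CPM in XBP1ΔDCIRE1truncDC pools. Igtp, an interferon-inducible GTPase, was at 33.5, 27.4, 40.1 and 31.8 CPM in controls, at 54.7, 29.8, 58.8 and 21.2 CPM in XBP1ΔDC pools and at 29.7, 87.5 and 30.6 CPM in XBP1ΔDCIRE1truncDC pools. Cxcl9, a chemokine for CXCR3-bearing T cells, was at 86.6, 59.9, 61.5 and 46.8 CPM in controls, at 131, 47.8, 127 and 31.6 CPM in XBP1ΔDC pools and at 33.9, 182 and 47.6 CPM in XBP1ΔDCIRE1truncDC pools. For the 3 genes XBP1ΔDCIRE1truncDC replicate 2 was the highest of all pools, and XBP1ΔDC replicates 1 and 3 lay above XBP1ΔDC replicates 2 and 4 without overlap. Serpina3g, a protease inhibitor gene, was likewise highest in that pool, with 112 to 233 CPM in controls, 346, 105, 414 and 87.4 CPM in XBP1ΔDC and 129, 644 and 141 CPM in XBP1ΔDCIRE1truncDC pools. On the log2 scale controls spanned a smaller range than either other genotype for these 4 genes.

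Over the whole interferon-gamma list, 20 of 21 measured genes had an SD above the median of all genes, and the mean deviation had an SD of 0.59, which was 0.52 without XBP1ΔDCIRE1truncDC replicate 2. The list of interferon-induced antiviral genes, which respond to type I interferons, had 29 of 34 genes above the median and an SD of 0.39. Its lowest pool was XBP1ΔDC replicate 4 (-0.74), and XBP1ΔDC replicate 2, low for the interferon-gamma list (-0.34), was high for the antiviral list (0.35). Oas3, an RNA sensor that activates RNase L, was at 25.2, 18.2, 15.3 and 10.4 CPM in controls, at 24.6, 30.9, 20.7 and 6.25 CPM in XBP1ΔDC and at 17.5, 29.3 and 20.1 CPM in XBP1ΔDCIRE1truncDC pools. Oas3, Ifi44 and Isg20 fell into an 8-gene group of their own with Egr1, lowest in XBP1ΔDC replicate 4 (-1.25). No gene of either interferon list was called between genotypes by edgeR or by DESeq2. Without adjustment, edgeR gave p under 0.05 for 1, 8 and 0 interferon-gamma genes and for 4, 4 and 5 antiviral genes in XBP1ΔDC against control, XBP1ΔDCIRE1truncDC against control and XBP1ΔDCIRE1truncDC against XBP1ΔDC. The share of all genes with such a p was 7.62%, 11.2% and 5.29% in the same order. Several of these counts are near it. The 8 of 21 interferon-gamma genes in the second comparison and the 5 of 34 antiviral genes in the third are above it. Genes of each list vary together (mean pairwise r of 0.52 and 0.55), so such counts are not of independent genes.

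The 96-gene group was led by Rrad, Snn, Ramp3, Tmem150c and Sox4. It held Ccl5, Apol7c, Anxa3, Nudt17, Tnfrsf4 and Tnfrsf9 of the maturation list, Nr4a2, Nr4a3, Fosb, Gem and Gadd45b of the immediate early list, Gbp4 of the interferon-gamma list, the checkpoint genes Pdcd1 and Ctla4, and all 4 Y-linked genes, so that most of its genes were in no list. The mean correlation between its genes was 0.63. Nr4a2, a nuclear receptor induced by activation, was at 855, 464, 437 and 229 CPM in controls, at 588, 688, 260 and 527 CPM in XBP1ΔDC and at 720, 344 and 1080 CPM in XBP1ΔDCIRE1truncDC pools. Ccl5, a chemokine for T cells, was at 236, 154, 278 and 148 CPM in controls, at 505, 377, 151 and 320 CPM in XBP1ΔDC and at 380, 336 and 1050 CPM in XBP1ΔDCIRE1truncDC pools. Apol7c, induced in dendritic cells on activation and a member, was at 21.2, 28.7, 15.8 and 12.8 CPM in controls, at 48.7, 51.2, 4.9 and 22.5 CPM in XBP1ΔDC and at 35.1, 4.94 and 58.7 CPM in XBP1ΔDCIRE1truncDC pools. XBP1ΔDC replicate 3 was the lowest XBP1ΔDC pool for the 3 genes, and XBP1ΔDCIRE1truncDC replicates 2 and 3 were the lowest and the highest pools of their genotype.

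The full maturation list behaved in the same way, with 37 of 40 measured genes above the median SD and an SD of the mean deviation of 0.38, which was 0.37 without XBP1ΔDCIRE1truncDC replicate 2. Ccr7, the receptor that guides mature dendritic cells to lymph nodes and one of the most abundant of them, was at 1710, 933, 1840 and 1010 CPM in controls, at 2770, 1960, 1210 and 1730 CPM in XBP1ΔDC and at 2200, 1640 and 3210 CPM in XBP1ΔDCIRE1truncDC pools. The groups overlapped, and Ccr7 had an adjusted p of 0.786, 0.346 and 0.986 by edgeR in the 3 comparisons, in the order used above. The maturation and immediate early lists varied together over the 11 pools (r = 0.79, rho = 0.87, r = 0.72 without the 2 farthest pools), and the maturation list ran opposite to the S phase list (r = -0.80, rho = -0.85, r = -0.76) and the mitosis list (r = -0.77, rho = -0.78, r = -0.63). It also ran with the Y-linked list (r = 0.81, rho = 0.85, r = 0.78), and the part of the sex of the mice in this spread was not tested. The lists in these pairs share no measured gene.

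By edgeR no gene of the maturation or immediate early list was called in any comparison. In XBP1ΔDCIRE1truncDC against control, 28 of 40 and 13 of 32 had an unadjusted p under 0.05, where 11.2% of all genes had. In XBP1ΔDC against control 4 and 0 had such a p, beside 7.62% of all genes. In XBP1ΔDCIRE1truncDC against XBP1ΔDC 2 and 4 had, beside 5.29%. Genes of each list vary together (mean pairwise r of 0.66 and 0.48), so these counts are not of independent genes. XBP1ΔDCIRE1truncDC replicates 1 and 3 also had the least Xist and the most Y-linked RNA, and the part of sex in these counts was not tested. DESeq2 called 2 genes of each list in XBP1ΔDCIRE1truncDC against control, where it called 0.868% of all genes, and none in the other comparisons. These were Cd200 and Eno2, both higher, and Egr3, higher, and Jun, lower, with adjusted p of 0.111 to 0.238 by edgeR, and they were picked out after their values were seen. The median log2 fold change of the maturation list was 0.74 there, beside 0.38 for the SD of its mean within genotype.

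**Figure D4:**
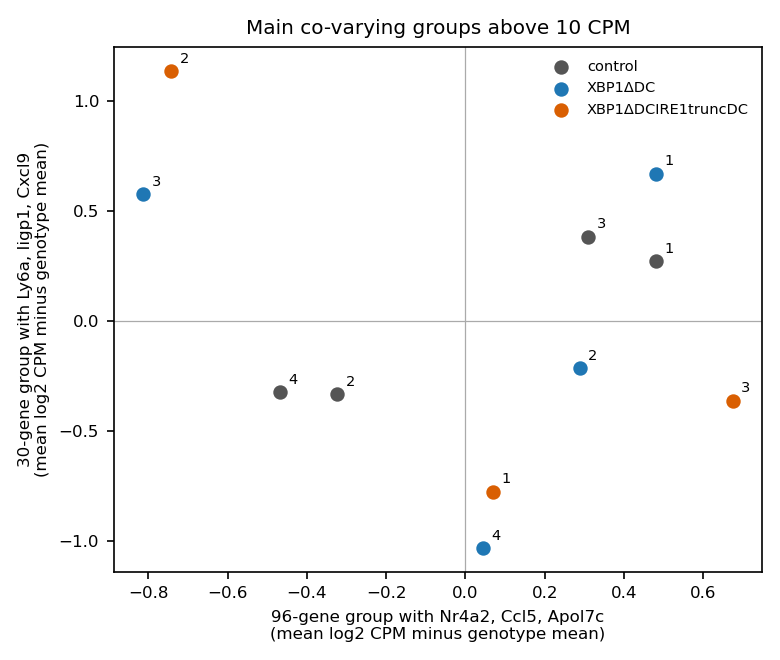
Mean deviation from the genotype mean of the 96-gene group (horizontal) and the 30-gene group (vertical) in each pool, on the log2 scale, colored by genotype and numbered by replicate. XBP1ΔDCIRE1truncDC replicate 2 and XBP1ΔDC replicate 3 share the upper left, with -0.74 and -0.81 on the horizontal axis and 1.14 and 0.58 on the vertical axis, and XBP1ΔDC replicate 4 is lowest on the vertical axis, at -1.03.

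Smaller groups of abundant variable genes had other patterns. A 15-gene group held Cd274 (PD-L1), Tnfsf9, Osm, Tnf, Ccl7 and Ccl2 and was low in control replicate 2 (-0.68) and XBP1ΔDC replicate 2 (-0.67). Tnf was at 16.7, 12.4, 18.5 and 16.6 CPM in controls, at 30.1, 5.99, 23.7 and 24.7 CPM in XBP1ΔDC and at 3.71, 25.5 and 8.34 CPM in XBP1ΔDCIRE1truncDC pools. A 19-gene group with Fcgr3, an Fc receptor, Mgl2, a lectin of cDC2s and macrophages, Ccl17 and Ccnd2 was low in control replicate 2 (-0.73) and XBP1ΔDCIRE1truncDC replicate 3 (-0.74) and high in XBP1ΔDCIRE1truncDC replicate 2 (0.79). A 7-gene group joined Dct and Gpnmb with Apoe, Ctsd and Mmp14, and was high in replicates 3 and 4 of control (0.62 and 0.70) and of XBP1ΔDC (0.40 and 0.83).

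Mki67, the gene of the proliferation antigen Ki-67, went its own way. It was at 98.8, 144, 143 and 107 CPM in controls, at 107, 120 and 153 CPM in XBP1ΔDC replicates 1 to 3, with replicate 4 above them, and at 112, 18 and 50 CPM in XBP1ΔDCIRE1truncDC pools. Top2a, a topoisomerase of dividing cells, was at 119, 194, 176 and 220 CPM in controls, at 130, 168, 193 and 222 CPM in XBP1ΔDC and at 185, 243 and 165 CPM in XBP1ΔDCIRE1truncDC pools. XBP1ΔDCIRE1truncDC replicate 2 was thus the lowest of all pools for Mki67 and the highest for Top2a. The mean deviation of the 28-gene mitosis list was 0.20 in that pool, and the mitosis list had the highest mean correlation between genes of all lists with over 4 genes, 0.78. Mki67 fell instead into a 13-gene group with Syne2, Dab2, Padi2, Itga8, Ifitm1 and Thbs1, which was at 0.94, -1.13 and 0.19 in XBP1ΔDCIRE1truncDC replicates 1 to 3. Over 8174 genes above 10 CPM, the deviation in a pool had a correlation with the log2 length of the longest transcript of -0.16 in XBP1ΔDC replicate 1 to 0.18 in XBP1ΔDC replicate 4, and of -0.094 in XBP1ΔDCIRE1truncDC replicate 2. The part of transcript length in the spread was not tested.

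Arf2, a small GTPase of vesicle transport (chr11:103966739-103985337), set 1 control apart from the others. It was at 371, 228, 257 and 35.8 CPM in controls 1 to 4, at 357, 271, 210 and 249 CPM in XBP1ΔDC and at 45, 51.4 and 39.7 CPM in XBP1ΔDCIRE1truncDC pools. The pools with IRE1 fl/fl alleles, control replicate 4 included, were all below the lowest of the others, with no overlap. Of the 8192 genes above 10 CPM, Arf2 was the only one for which these sets of pools were separated by a gap of over 1 on the log2 scale. Arf2 was chosen after its values were seen. Ern1 itself (chr11:106394650-106487852) was at 19, 14.1, 13.1 and 9.82 CPM in controls, at 9.74, 15.6, 12.9 and 11.5 CPM in XBP1ΔDC and at 21.4, 17 and 26 CPM in XBP1ΔDCIRE1truncDC pools, and Xbp1 had a within-genotype SD of 0.14.

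The 60 XBP1s targets and 78 measured RIDD targets (transcripts cut by IRE1) used by the study had a median SD per gene of 0.13 and 0.20, beside 0.22 for all genes and 0.18 for those above 10 CPM, and the mean deviation of each list had an SD of 0.030 and 0.040. The RIDD list holds 2 members, Fn1 and Ptprf, with SDs of 2.11 and 1.57. Both lists are literature gene sets taken over from the study's supplement. The lists share 9 measured genes. The SD of the mean deviation was 0.10 for the 19 ER chaperones, 0.096 for the 11 MHC class II genes, 0.046 for the 73 ribosomal proteins and 0.037 for the 19 cDC1 identity genes. Without XBP1ΔDCIRE1truncDC replicate 2 the value was 0.061 for the ER chaperones and 0.017 for the XBP1s targets. Scaled by library size alone, it was 0.049 for the XBP1s targets and 0.023 for the RIDD targets, the reverse of their order above. Xcr1, the chemokine receptor that defines cDC1s, was at 773 to 875 CPM in controls, 751 to 989 CPM in XBP1ΔDC and 798 to 944 CPM in XBP1ΔDCIRE1truncDC pools. The SD of a mean falls with the number of genes, so the per-gene medians are the fairer comparison. They were 0.70 for the interferon-gamma list, 0.44 for maturation, 0.35 for mitosis, 0.24 for S phase, 0.24 for PERK and ATF4 targets, 0.13 for cDC1 identity and 0.070 for ribosomal proteins, beside 0.22 for all genes. Mitochondrially encoded and erythroid genes had none above the filter and were not analysed here.

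**Figure D5:**
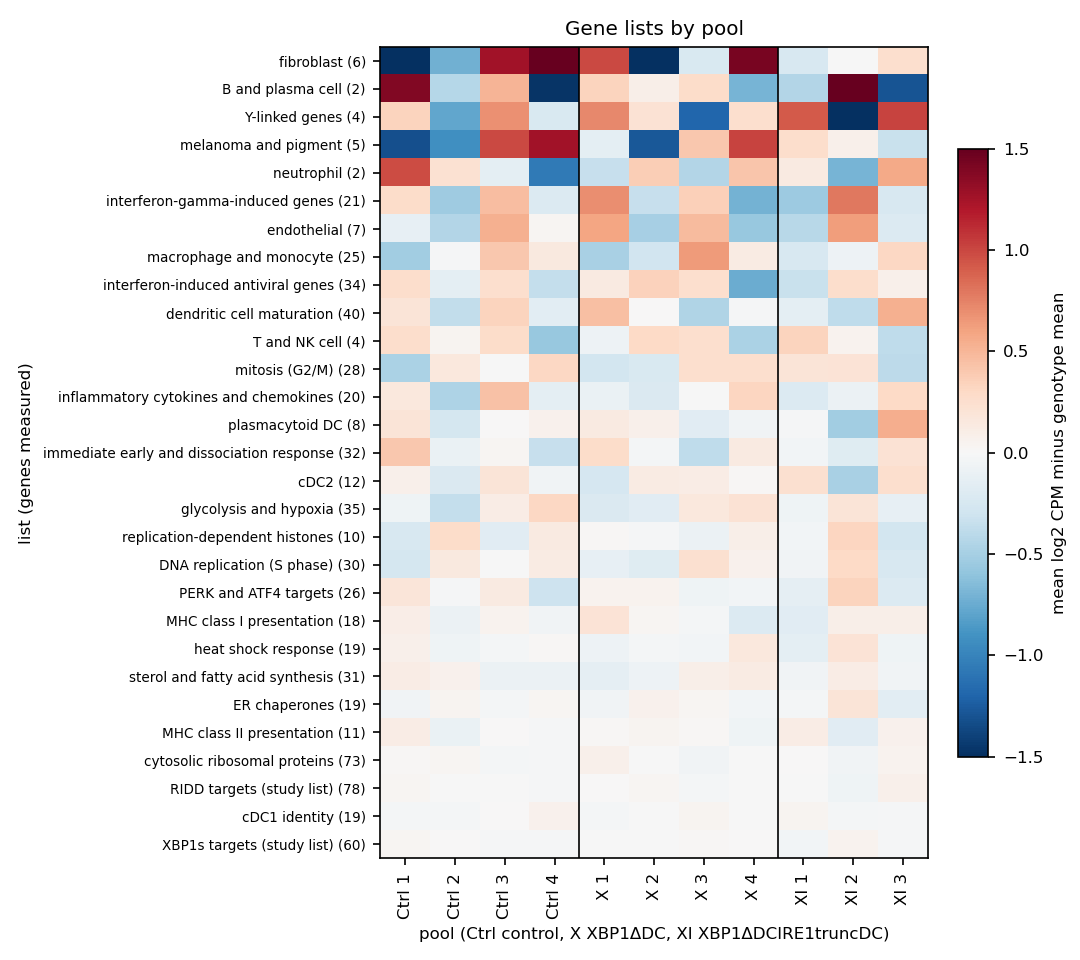
Mean deviation from the genotype mean (log2 scale, color clipped at 1.5) of each gene list with over 1 measured gene (rows, with the number of genes) in the 11 pools (columns), in order of spread. Among genes above the filter, the fibroblast, B cell, Y-linked and pigment lists vary most by the SD of this mean, and cDC1 identity, ribosomal, XBP1s and RIDD lists vary least. That SD falls with the number of genes. By the median SD per gene the RIDD list was at 0.20, beside 0.18 for genes above 10 CPM. The B cell list's SD, 1.12 for 2 measured genes, was 0.39 without a filter, below the 0.71 of the endothelial list under that setting.

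No member was called between genotypes by edgeR. In XBP1ΔDC against control, edgeR called 54 of 10951 genes (0.493%) (adjusted p under 0.05, fold above 1.5), and 0 of the 200 members. In XBP1ΔDCIRE1truncDC against control it called 0.210% of genes, and in XBP1ΔDCIRE1truncDC against XBP1ΔDC 0.0731%, with 0 members in each. A share of 0 among 200 is near these backgrounds, and a large spread makes a call harder. By edgeR an unadjusted p was under 0.05 for 5, 10 and 16 members, beside 834, 1224 and 579 of all genes. DESeq2, which called 0.685%, 0.868% and 0.329% of all genes, called 0, 0 and 1 members, the 1 being Acta2, the smooth muscle actin, and limma voom called 0 in each. The median standard error of a member's log2 fold change was 0.96, 1.03 and 1.02 in the 3 comparisons, beside 0.15 to 0.16 for all genes. Of the abundant variable genes edgeR called 0 in each comparison, with an unadjusted p under 0.05 for 3, 45 and 7, beside 8.54%, 12.6% and 5.36% of all genes above 10 CPM, and DESeq2 called 1, 4 and 1, namely Slc6a9 in the first, Slc6a9, Arf2, Insm1 and Il18bp in the second and Arf2 in the third. Most of these genes fall into groups that vary together, so such counts are not of independent genes.

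Slc6a9, a glycine transporter gene, was at 2.08, 3.41, 4.56 and 0.759 CPM in controls, at 16.5, 7.27, 12 and 7.37 CPM in XBP1ΔDC and at 11.3, 24.2 and 10.4 CPM in XBP1ΔDCIRE1truncDC pools. All control pools were below all other pools. Against control its log2 fold was 1.99 in XBP1ΔDC (edgeR adjusted p = 0.0905) and 2.49 in XBP1ΔDCIRE1truncDC (edgeR adjusted p = 0.0556).

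By median SD each genotype taken alone varied to a like extent, with 0.19 in control, 0.20 in XBP1ΔDC and 0.21 in XBP1ΔDCIRE1truncDC pools over all genes. Above 10 CPM the medians were 0.15, 0.16 and 0.17, again lowest in control. A chi-square between the counts of 2 pools, per degree of freedom, was 21.18 to 34.56 in control pairs and 27.13 to 44.25 in XBP1ΔDC pairs. In XBP1ΔDCIRE1truncDC pairs it was 39.63 to 67.27, above every control pair. When the 200 most variable genes were taken from each genotype alone, 73 were shared by control and XBP1ΔDC (36.5% of each list), 64 by control and XBP1ΔDCIRE1truncDC (32.0%) and 71 by XBP1ΔDC and XBP1ΔDCIRE1truncDC (35.5%), and 36 were in all 3, among them Igfbp3, Igfbp7, Col4a1, Aqp1, Cav1, Plvap and Tyrp1. A list of 200 is 1.83% of the genes tested, and scarce genes are favored in every genotype alike. Above 10 CPM, where 200 genes are 2.44%, the shared numbers were 73, 64 and 89, with 40 in all 3.

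By position, the members with annotation (199 of 200 in GENCODE vM21) were spread over the chromosomes, with 18 of 531 genes tested on chromosome 6, 18 of 827 on chromosome 7, 18 of 951 on chromosome 11 and 10 of 336 on X. Of the members 194 were protein coding, their longest transcripts had a median of 3899 bases beside 3396 for all genes, and their median GC content was 50.3% beside 49.6%.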

How the data were processed

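Messenger RNA of 11 pools of sorted cDC1s was amplified with SMART-seq and sequenced. Reads were trimmed with Trimmomatic 0.39, checked with FastQC 0.11.8, aligned to mm10 with STAR 2.7.3a and counted per gene with HTSeq, per the study's methods and the submitters' processing notes. The deposited raw count table was used here. A table of log2 values normalized by the authors with limma 3.42.2 was not used.

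Counts were scaled by TMM in edgeR 4.0.16 (R 4.3.3), converted to log2 CPM with a prior count of 2, and centered on the genotype mean. The filter was over 1 CPM in 4 or more pools. The members and gene lists were chosen with earlier results of these data known. Genes were named by rule: the 30 with the largest SD, up to 5 of each list and 8 of each group or end of a component, the 10 steadiest above 50 CPM, those beside the limit of the set, Xbp1, Ern1, Xist and Y-linked genes. Others (such as Ccr7, Oas3, Tnf and Top2a where outside it) were picked after their values were seen. Genotypes were compared with edgeR's quasi-likelihood test over all 10951 genes with Benjamini-Hochberg adjustment, with calls at adjusted p under 0.05 and over 1.5-fold. DESeq2 1.42.0 and limma voom 3.58.1 were alternatives, as were other prior counts, filters, set sizes and scalings, each pool left out in turn, control replicate 4 as its own group, and a replicate block. The scripts were tested on simulated counts. Pools are separate sets of mice, so p-values measure the spread between pools. Depth was 21089065 to 26843486 counts per pool. Coordinates are from GENCODE vM21 (GRCm38). Python 3.11.15 was used for promoters and figures.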

Additional observations from a re-analysis of the deposited data

Results flagged for a closer look

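Of 252 sets of 4 pools that were looked at, 9 (3.57%) had 1 pool farther from the others than Dixon's 95% limit for the gap over the range. That limit is passed by about 5% of sets not chosen by their spread. The sets here included members and member groups, which were chosen by it, so the shares cannot be compared and the flags below carry no test. In XBP1ΔDC replicate 2, Igfbp7 deviated by -4.62 from the genotype mean on the log2 scale (others 1.16 to 2.22), Sparc by -3.20 (others 0.786 to 1.34), Tnf by -1.58 (others 0.393 to 0.734) and the ribosomal gene Rpl8 by 0.0304 (others -0.0125 to -0.00688). In control replicate 1, the 14-gene group with Fn1 and Mrc1 deviated by -2.99 (others 0.692 to 1.44), the 8-gene group with Oas3 by 0.592 (others -0.254 to -0.154) and Xcr1 by -0.128 (others 0.0303 to 0.0509). In control replicate 3, Plvap deviated by 3.09, with all others at -1.03, where it had no count. In control replicate 4, Tmem119 deviated by -2.06 (others 0.508 to 0.911). Sets of 3 pools were not looked at in this way.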

How the results depend on the processing

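The median SD of the members, 1.61, was 2.10 with a prior count of 0.5, 1.29 with 5, 1.73 with the filter at 3 pools, 1.86 without a filter, 0.66 with the filter at 10 CPM, 1.87 for 100 members, 1.31 for 400 and 0.61 for spread relative to the trend with abundance. The share on the first component, 27.9%, was 42.0% at 10 CPM, 33.2% for 100 members, 25.3% for 400 and 46.9% relative to the trend. With 1 pool left out, these 2 values were 1.52 to 1.60 and 22.9% to 31.8%. The 200 members shared 5 genes with those chosen at 10 CPM, 16 with those relative to the trend, 78 without a filter and 153 to 176 with 1 pool left out. Which genes are members therefore depends on the abundance limit. The number of members called, 0 in each comparison, became 1 at 10 CPM (Slc6a9, XBP1ΔDCIRE1truncDC against control) and 1 with DESeq2 (Acta2, XBP1ΔDCIRE1truncDC against XBP1ΔDC). Genes shared by the 3 genotypes went from 36 to 39 with a 10 CPM filter added after seeing the data, where the scaling was redone on the filtered genes, and to 40 with the scaling of all genes.

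Pools with the same number share only that number in the labels. Their deviations had a mean r of 0.098 (0.042 to 0.13) between control and XBP1ΔDC, where pools with different numbers had -0.033, and of 0.0035 and -0.22 for the other pairs of genotypes, so that not every pair was above 0.1 and the pools were not treated as paired. With a replicate block the median SD of the members was 1.59, the share on the first component 38.6% and the members called 0, and calls over all genes went from 54, 23 and 8 to 40, 11 and 3. DESeq2 called 75, 95 and 36 of all genes, and calls with 1 pool left out were 37 to 57, 12 to 23 and 4 to 10. Of 653 list values under other settings 30 moved by more than the list's SD varies between the 3 genotypes (as an SD), 13 of them for the T and NK cell list. The antiviral list's SD of 0.39 was 0.26 without XBP1ΔDC replicate 4 and 0.27 with the replicate block. The macrophage list's SD of 0.41 was 0.16 at 10 CPM and 0.17 with the block. Scaled by library size alone, the SD was 0.023 for the RIDD list (0.040), 0.049 for the XBP1s list (0.030) and 0.055 for cDC1 identity (0.037). The sex of the mice, the sort and the library of a pool cannot be told apart.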

Other observations

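Other lists varied with those above. The mean deviation of 7 measured endothelial genes followed that of the interferon-gamma list over the 11 pools (r = 0.94, rho = 0.95, r = 0.90 without the 2 pools farthest from the median), although the lists share no gene, and the 11 endothelial genes summed to 19.6 to 42.1 CPM over all pools. MHC class I genes followed the interferon-gamma list (r = 0.78, rho = 0.75, r = 0.69 without the 2 pools), but with a small SD of 0.14, from -0.21 in XBP1ΔDC replicate 4 to 0.21 in XBP1ΔDC replicate 1. The plasmacytoid DC list, with 8 measured genes, followed the maturation list (r = 0.81, rho = 0.85, r = 0.72 without the 2 pools). Usp2, a deubiquitinase gene under the control of the circadian clock, was the only one of the 5 genes in both sets that is neither sex-linked nor named above with its values, at 12.5, 10.4, 2.53 and 0.848 CPM in controls, at 12.0, 16.6, 3.22 and 2.06 CPM in XBP1ΔDC pools and at 6.06, 3.26 and 10.8 CPM in XBP1ΔDCIRE1truncDC pools. In control and in XBP1ΔDC, replicates 1 and 2 were above replicates 3 and 4 without overlap, the reverse of Dct and Tyrp1. Usp2 was picked after its values were seen.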
